A study of Mus musculus with 2 samples.

Results

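Runs of 5 or more Sox9 peaks are stretches of autosomal sequence in which called Sox9 binding sites follow each other at short distance in mouse rib chondrocytes. A run was a series of Sox9 peaks on chromosomes 1 to 19 whose neighbouring centres lay no more than 12.5 kb apart, and 441 of the 15310 runs of 1 or more peaks held at least 5. The runs were chosen by the positions of Sox9 peaks alone, so their number of Sox9 peaks, spacing and length are a description. Sox6 peaks come from another library and played no part in the choice.

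SOX9 is the HMG-box transcription factor required for cartilage formation. SOX6 belongs to the related SOXD group, has an HMG box but no known activation domain of its own, and acts beside SOX9 on cartilage genes. Groups of closely spaced SOX9 sites are a known feature of enhancer regions of chondrocytes.

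The Sox6 list came from 1 chromatin immunoprecipitation (ChIP-seq) sample of primary rib chondrocytes of untreated wild-type ICR mice at postnatal day 1, taken so as to leave out mature hypertrophic cartilage. A sample of input DNA from the same kind of cells completed the series and has no peak list analysed here. The authors made the Sox9 list from 2 earlier ChIP-seq samples of the same cell type, and the sources used here do not give the strain and age behind them. The autosomes carried 23615 Sox9 peaks and 77750 Sox6 peaks. Each factor has 1 list without scores or read counts, so depth is unknown, no difference below has a replicate check, and no test was made. Intervals are 95% exact binomial (Clopper-Pearson), cover counting error only and treat peaks as independent, which peaks of 1 run are not. Antibody, animals and library differ together with the factor and cannot be told apart from it.

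The runs took up a small part of the sequence and a larger part of the Sox9 list. They covered 9.86 Mb, or 0.399% of the autosomal sequence between position 0 and the last peak of each chromosome, and held 2828 Sox9 peaks, 12.0% of the autosomal ones. A run spanned 2.03 to 89.4 kb with a median of 20.9 kb, measured between the outer edges of its first and last peak. It held 5 to 32 Sox9 peaks with a median of 6, and the median spacing of neighbouring centres was 3018 bp, with quartiles of 1036 and 6568 bp. At the limit of the rule, 377 runs had 4 peaks and stayed outside, 201 had 5 and 108 had 6. Only 31 runs had 10 or more. Chromosome 11 had the most runs, 34 (28.0 per 100 Mb), and the lowest density was on chromosome 12, with 12 runs (9.90 per 100 Mb). The share of Sox9 peaks that lay in runs was 11.7% on chromosome 11, close to the 12.0% of all autosomes. It was highest on chromosome 17, at 16.7%, and lowest on chromosome 12, at 7.47%. Neighbouring runs lay a median of 2269 kb apart, and 47 neighbouring pairs were less than 50 kb apart. With a spacing limit of 5000 bp there were 126 such runs, and with 25000 bp there were 858.

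Every one of the 441 runs held at least 1 Sox6 peak. Of all autosomal Sox9 peaks 76.7% shared 1 bp or more with a Sox6 peak. Only 4.82% of runs of 2 to 4 Sox9 peaks had no such peak, so the count says little about runs of 5 or more in particular. The runs contained 3470 Sox6 peaks, 4.46% of the autosomal ones, with 1 to 44 in a run and a median of 7. Sox6 peaks outnumbered Sox9 peaks in 224 runs, equalled them in 78 and were fewer in 139. In 101 runs there were 10 or more Sox6 peaks, and in 5 runs only 1. Across the 441 runs the number of Sox6 peaks went with the number of Sox9 peaks (Pearson r 0.63, Spearman rho 0.52), but both counts also went with the length of the run (r 0.65 for Sox6 and 0.66 for Sox9), so these values are a description of regions that differ in length.

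The 4 runs with the most Sox9 peaks differed in how the sites of the factors were laid out. The largest lay on chromosome 15 (mm9, chr15:97804275-97885963) and held 32 Sox9 peaks and 22 Sox6 peaks. Of its Sox9 peaks 13 shared 1 bp or more with a Sox6 peak, which is the meaning of overlap here, and just 8 Sox6 peaks lay in the 100 kb made up of 50 kb on each side. The second, on chromosome 19 (chr19:5786466-5850375), held 29 peaks of each factor, but only 9 of the Sox9 peaks overlapped Sox6. In both of these runs most Sox9 peaks did not overlap a Sox6 peak, although some of them had a Sox6 centre within 1000 bp. On chromosome 10 (chr10:82557126-82646550) 15 of 21 Sox9 peaks overlapped one of 44 Sox6 peaks, and on chromosome 7 (chr7:124613744-124676790) 13 of 18 did, among 36 Sox6 peaks. These 2 runs lay within longer stretches of Sox6 peaks: the flanks held 0.400 Sox6 peaks per kb beside 0.492 inside on chromosome 10, and 0.405 beside 0.571 on chromosome 7.

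**Figure D1:**
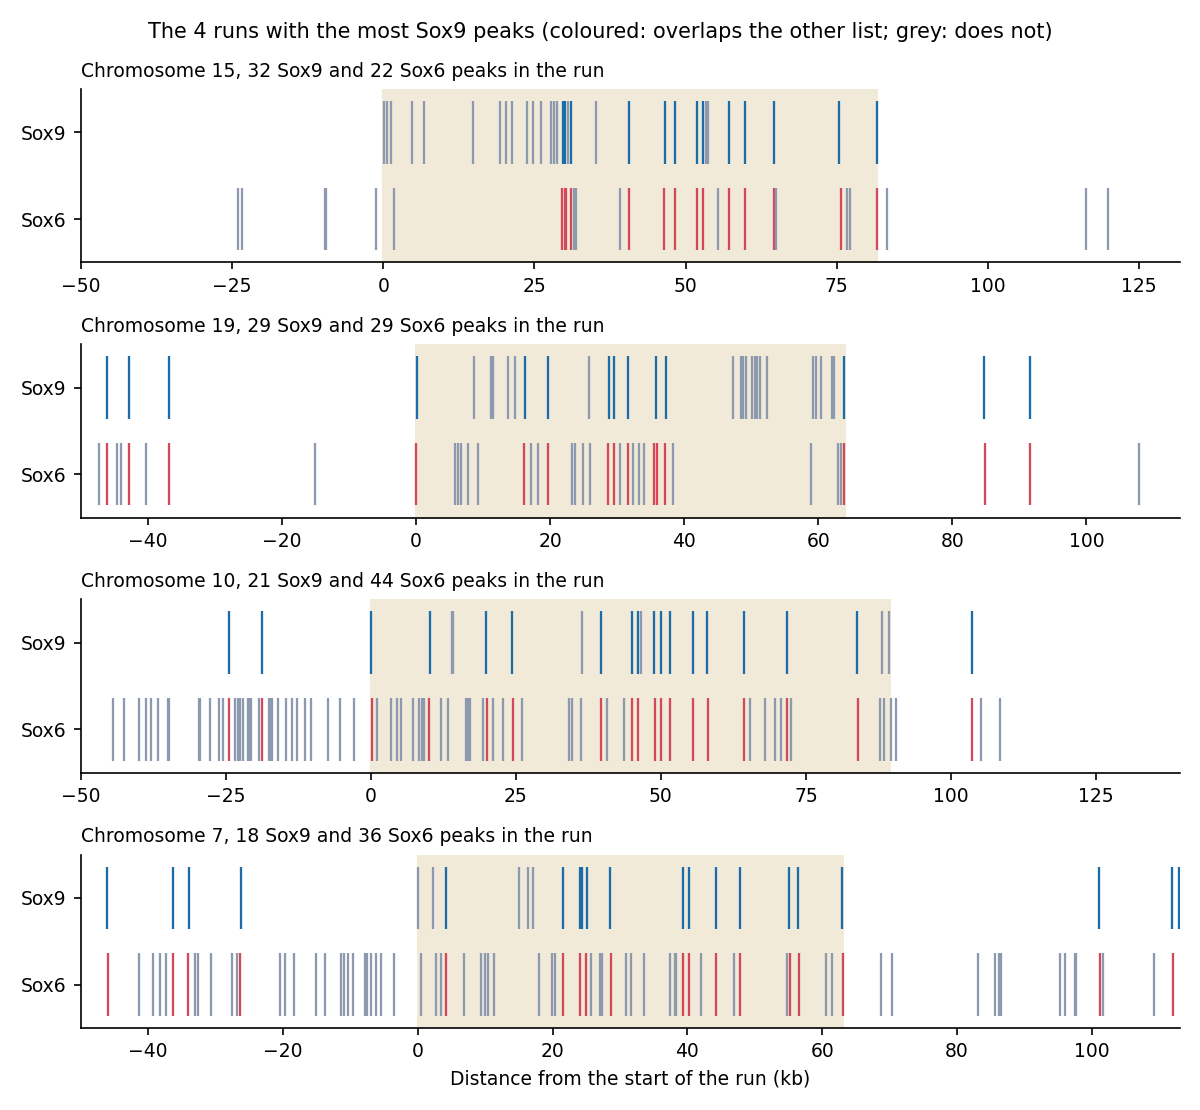
Positions of Sox9 peaks (upper row of each panel) and Sox6 peaks (lower row) in the 4 runs with the most Sox9 peaks and 50 kb on each side, by distance from the start of the run in kb; the shaded span is the run. Coloured lines overlap a peak of the other list and grey lines do not. On chromosome 15 the first 15 Sox9 peaks are all grey, and on chromosomes 10 and 7 Sox6 peaks continue beyond the run.

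The remaining 6 of the 10 runs with the most Sox9 peaks had 13 to 15 of them. On chromosome 2 (chr2:164247288-164295658) the run held 15 Sox9 and 31 Sox6 peaks, with 0.641 Sox6 peaks per kb inside and 0.140 in the flanks. The run on chromosome 8 (chr8:109972410-110019599) had 14 Sox9 peaks, of which 6 overlapped Sox6. Of the runs with 13 Sox9 peaks, the one on chromosome 6 (chr6:37341399-37392535) held 32 Sox6 peaks, 5.90 times its flank density, although only 7 of these touched a Sox9 peak. The run on chromosome 4 (chr4:62844021-62890296) held 22 Sox6 peaks. On chromosome 1 (chr1:71688453-71716045) 5 of the 13 Sox9 peaks overlapped Sox6, and the flanks held 44 Sox6 peaks beside 16 in the run. The run on chromosome 3 (chr3:90378570-90419189) had the highest shared proportion of the 10, with 11 of 13 Sox9 peaks on a Sox6 peak and 5 Sox6 peaks in the flanks. Among these 10 the share of Sox9 peaks that overlapped Sox6 thus ranged from 31.0% on chromosome 19 to 84.6% on chromosome 3.

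Sox6 peaks were denser inside the runs than beside them. The runs held 0.352 Sox6 peaks per kb and the flanks, 50 kb on each side without any part of another run, held 0.109 per kb (3470 peaks in 9862 kb against 4385 in 40100 kb). The ratio was 3.22 (3.08 to 3.36). Runs of 2 to 4 Sox9 peaks, with shorter spans, had a higher ratio of 5.40 (5.28 to 5.53). In 429 of the 441 runs (97.3%) the density was higher inside than in the run's own flanks. Of the 4193 runs of 2 to 4 Sox9 peaks, whose flanks left out other runs of 2 to 4 but not the longer ones, 93.4% were denser inside, so the count is close to that of smaller runs. For spans of 10 kb or more the shares were 97.2% and 95.1%. A run begins and ends on a Sox9 peak, and most Sox9 peaks overlap a Sox6 peak. Outside a run, no Sox9 centre can lie within 12.5 kb of the centre of an end peak. Part of the ratio is therefore fixed by the rule.

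Sox6 peaks that touched no Sox9 peak, called Sox6-only peaks here, do not count the Sox6 peaks of the Sox9 sites themselves, and so leave out more Sox6 peaks inside a run than beside it. They numbered 0.157 per kb inside the runs (1547 peaks) and 0.0893 per kb in the flanks (3580 peaks), a ratio of 1.76 (1.65 to 1.87), beside 1.91 (1.84 to 1.99) for runs of 2 to 4. Over single runs the median was 0.114 per kb inside and 0.0800 per kb in the flanks. The Sox6-only density was higher inside in 272 of the 441 runs (61.7%). The corresponding share was 34.7% of runs of 2 to 4 peaks, many of them too short to hold a further Sox6 peak. Restricted to spans of 10 kb or more, it was 62.7% of 397 runs of 5 or more and 53.3% of 1011 runs of 2 to 4. No Sox6-only peak lay inside 68 of the 441 runs.

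**Figure D2:**
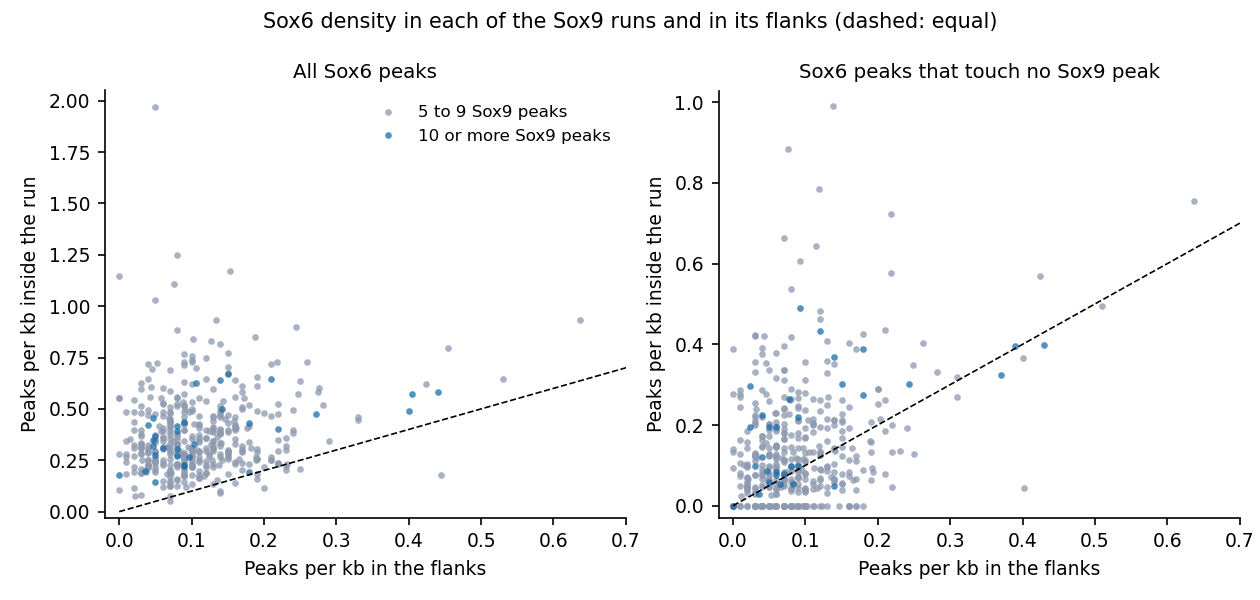
Each point is 1 of the 441 runs, with its Sox6 peaks per kb in the flanks (x axis) and inside the run (y axis), for all Sox6 peaks on the left and Sox6-only peaks on the right; the dashed line marks equal density, and the y axes differ. On the left 429 runs lie above the line, on the right 272 do, and runs with 10 or more Sox9 peaks are spread among the others.

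The Sox6-only density was similar just inside and just outside the edge of a run and fell off slowly farther out. Inside the runs it was 0.143 to 0.167 per kb at every depth from the edge, and in the first 2.5 kb outside it was 0.156 per kb. The definition itself bears on this: in the outermost 2.5 kb of the runs it left out 875 of 1201 Sox6 peaks as shared, whereas at 2.5 to 5 kb outside, where no Sox9 centre can lie, it left out 0 of 266. It then declined to 0.121 per kb at 2.5 to 5 kb, 0.0962 at 7.5 to 10 kb and 0.0568 at 87.5 to 100 kb from the edge. The autosomal mean was 0.0242 Sox6-only peaks per kb, so the surroundings were above that mean over the whole 100 kb examined. Runs of 2 to 4 peaks had 0.124 per kb in the first 2.5 kb outside, 0.0594 at 7.5 to 10 kb and 0.0477 at 87.5 to 100 kb. In contrast, the density of all Sox6 peaks dropped from 0.548 per kb in the outermost 2.5 kb of the runs, which hold the end Sox9 peaks, to 0.180 per kb in the first 2.5 kb outside.

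**Figure D3:**
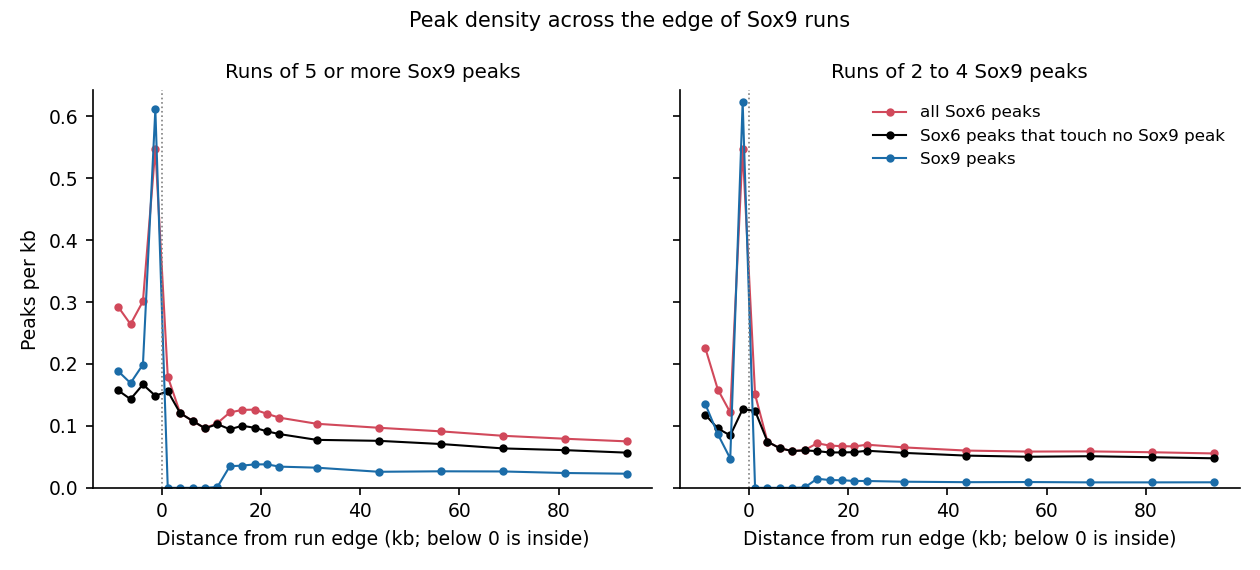
Peaks per kb (y axis) against distance from the edge of the run in kb (x axis, values below 0 are inside, to a depth of 10 kb) for runs of 5 or more Sox9 peaks (left) and of 2 to 4 (right); lines show all Sox6, Sox6-only and Sox9 peaks pooled over runs. The black Sox6-only line, from which more peaks are left out inside by definition, is at 0.149 per kb inside the edge and 0.156 outside for runs of 5 or more, while the Sox9 line is at or near 0 up to 12.5 kb outside by construction.

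Runs with more Sox9 peaks lay in regions with more Sox6-only peaks, both in the run and around it. To set runs of all sizes side by side, Sox6-only peaks were also counted in a fixed window of 25 kb about the middle of each run, with flanks that left out the other windows of the same class. The window held 0.0553 per kb around single Sox9 peaks, 0.0783 around runs of 2, 0.109 for 3 to 4, 0.136 for 5 to 6, 0.169 for 7 to 9 and 0.201 for 10 or more. The flanks of these windows went the same way, from 0.0386 per kb for single peaks to 0.0857 for runs of 5 to 6 and 0.139 for runs of 10 or more. Window and flank rose together, and their ratio was 1.43 (1.40 to 1.46) for single peaks and 1.45 (1.20 to 1.75) for runs of 10 or more, with 1.77 (1.70 to 1.85) the highest, at 3 to 4 peaks. Runs longer than 25 kb reach beyond their window, so the flanks of that window hold part of the run. Measured from the run edges, the flanks held 0.0570 per kb for runs of 2 and 0.122 for 10 or more. The ratios were then 1.70 (1.60 to 1.80) for 2, 1.53 (1.42 to 1.66) for 5 to 6 and 1.78 (1.52 to 2.08) for 10 or more. Over the 441 runs themselves, the Sox6-only density inside had a Pearson r of 0.34 and a Spearman rho of 0.22 with that in the flanks.

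Sox6 peaks form runs by the same spacing rule, and 223 of the 441 Sox9 runs (50.6%) lay wholly within 1 of them. Of the runs of 2 to 4 Sox9 peaks 39.6% did. Of the 441 runs, 416 met exactly 1 Sox6 run and 25 met more than 1. Since every run held a Sox6 peak, each had to meet at least 1 Sox6 run. In 10 cases 1 Sox6 run held at least 2 whole Sox9 runs.

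The 18 runs with 20 or more Sox6 peaks were chosen by that count, so their high Sox6 numbers are a description. Together they held 232 Sox9 and 481 Sox6 peaks, and 338 of these Sox6 peaks (70.3%) were Sox6-only. In all 441 runs 1547 of the 3470 Sox6 peaks were Sox6-only. Of all autosomal Sox6 peaks just 23.2% overlapped a Sox9 peak, and the rest were Sox6-only. Among the 132 runs with 7 or more Sox9 peaks the highest Sox6 density was on chromosome 4 (chr4:62910154-62949831), where 37 Sox6 peaks stood beside 8 Sox9 peaks, or 0.933 per kb. This run lay 19.9 kb from the chromosome 4 run described above, and its flanks, at 0.636 per kb, were dense as well. Next came a run on chromosome 9 (chr9:92438068-92472610) with 31 Sox6 and 7 Sox9 peaks. The third, on chromosome 15 (chr15:61814699-61823753), was 9.05 kb long with 8 Sox6 and 7 Sox9 peaks. The fourth lay on chromosome 3 (chr3:27537042-27563435) with 21 Sox6 and 8 Sox9 peaks, and the fifth on chromosome 2 (chr2:180332598-180346962) with 11 and 7. The run on chromosome 15 was 11.0 times as dense in Sox6 as its flanks, whereas the chromosome 4 run was only 1.47 times as dense.

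At the other end, the lowest Sox6 density among runs of 7 or more was 0.122 per kb on chromosome 11 (chr11:119528064-119577263), where all 6 Sox6 peaks overlapped a Sox9 peak and 6 of the 8 Sox9 peaks were shared. A run on chromosome 8 (chr8:124866010-124900322) had 10 Sox9 peaks but 5 Sox6 peaks, and 3 of the 10 were shared. The runs on chromosome 5 (chr5:136410438-136439371) and chromosome 1 (chr1:184838592-184890464) had 0.173 and 0.174 Sox6 peaks per kb. They differed in sharing, with 3 of 7 Sox9 peaks on a Sox6 peak in the former and 7 of 8 in the latter.

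The fifth of these low-density runs was unlike the others. On chromosome 17 (chr17:39980026-39985699) 10 Sox9 peaks followed each other within 5.67 kb, at a median spacing of 494 bp, and 1 Sox6 peak lay among them. Beyond the run the nearest Sox6 centre was 1032 kb away and the nearest Sox9 centre 1086 kb away. Its share of Sox9 peaks on a Sox6 peak, 10.0%, was the lowest of the 441 runs. Whether the stretch is repeated sequence such as ribosomal DNA, which would change what its peaks count, was not tested.

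In 12 runs the Sox6 density was not higher inside than in the flanks, with a fold of 0.397 to 0.998. These 12 had 5 to 7 Sox9 peaks each. The lowest fold was on chromosome 7 (chr7:86166393-86189027), chosen here after its values were seen, where 4 Sox6 peaks lay inside 22.6 kb and 31 in 69.7 kb of flank.

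Most Sox9 peaks of the runs lay on a Sox6 peak. Of the 2828 Sox9 peaks in runs 2001 (70.8%, 69.0 to 72.4) overlapped a Sox6 peak, beside 76.7% of all autosomal Sox9 peaks and 80.5% (79.7 to 81.2) of the single ones. In 69 of the 441 runs every Sox9 peak was shared, in 152 all but 1, and in no run was none shared. For runs of 2 to 4 the background was 50.5% with every peak shared and 4.82% with none, shares that smaller numbers of peaks favour. Seen from Sox6, 1923 of the 3470 Sox6 peaks inside runs (55.4%, 53.7 to 57.1) overlapped a Sox9 peak, against 18.4% (17.2 to 19.5) in the flanks and 23.2% of all autosomal Sox6 peaks. That contrast follows largely from the number of Sox9 peaks a run must hold. With an overlap of 50% of both peaks required, the shares in runs were 40.6% for Sox9 and 33.1% for Sox6.

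Lower shares went with Sox9 peaks with another Sox9 peak close by. In the runs, 48.2% (43.7 to 52.7) of the 492 Sox9 peaks with a neighbouring centre within 500 bp overlapped Sox6. The share was 58.3% (54.0 to 62.6) for a nearest neighbour at 500 to 1000 bp, 77.6% (74.3 to 80.7) at 1000 to 2500 bp, 81.6% (78.1 to 84.7) at 2500 to 5000 bp and 82.9% (79.5 to 85.9) beyond 5000 bp. Runs of 2 to 4 peaks gave like values, 54.6% (52.1 to 57.2) within 500 bp and 81.7% (80.4 to 83.0) beyond 5000 bp. Of the Sox9 peaks in runs of 5 or more, 35.9% had a neighbour within 1000 bp, and 29.0% did in runs of 2 to 4. Among those whose neighbours were all over 1000 bp away, 80.5% (78.6 to 82.3) overlapped Sox6 in runs of 5 or more and 81.3% (80.3 to 82.2) in runs of 2 to 4, beside 80.5% of single peaks. Single peaks stood later in the list, where overlap was lower. Within each 25% of the Sox9 list, from first to last, the share was 89.0%, 81.4%, 76.3% and 68.5% for the spaced peaks of runs of 5 or more and 90.2%, 84.1%, 76.7% and 72.8% for single peaks. Runs of 10 or more were lower on both sides of the 1000 bp limit, at 40.5% (32.8 to 48.6) and 75.6% (69.7 to 80.8). The latter interval overlaps that of runs of 5 to 6, at 80.3% (77.8 to 82.6). This class has only 31 runs with 404 Sox9 peaks. Among them are the largest runs on chromosomes 15 and 19 and the isolated chromosome 17 run, with 13 of 32, 9 of 29 and 1 of 10 Sox9 peaks shared.

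**Figure D4:**
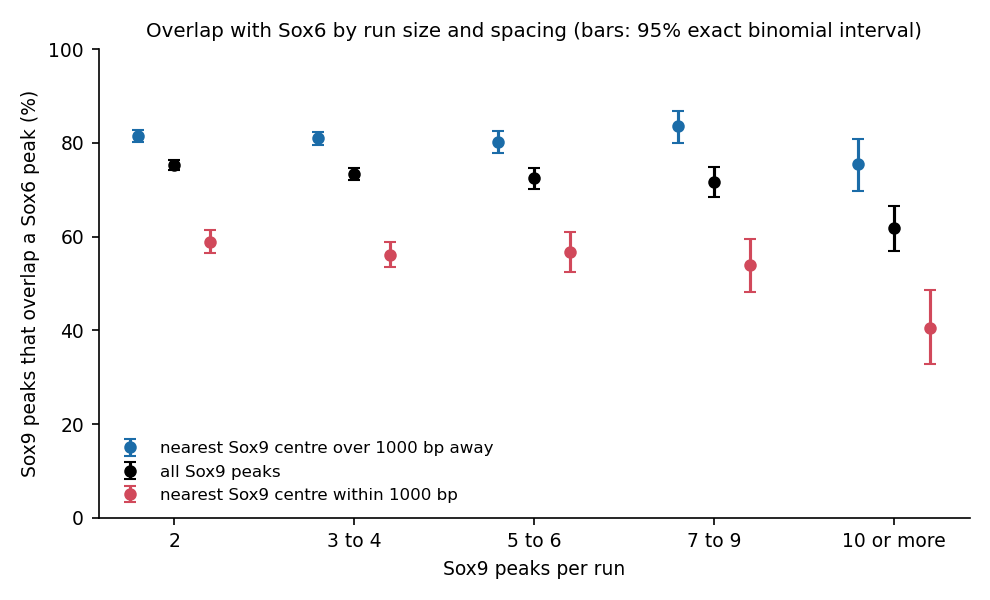
Percentage of Sox9 peaks that overlap a Sox6 peak (y axis) by the number of Sox9 peaks in the run (x axis), for all of them (black), those with the nearest Sox9 centre of the run over 1000 bp away (blue) and within 1000 bp (red); bars are 95% exact binomial intervals over peaks. Blue points lie between 75.6% and 83.6% and red points between 40.5% and 58.9%.

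Neighbouring Sox9 peaks of a run were also counted as pairs, as a further description of the lower overlap of close peaks. Of the 265 neighbouring pairs with centres up to 500 bp apart, both overlapped Sox6 in 57, 1 did in 138 and neither in 70. Of the 498 pairs 2500 to 5000 bp apart, both did in 310, 1 in 158 and neither in 30. Exactly 1 peak thus overlapped in 52.1% of the former pairs and 31.7% of the latter. How many such pairs the overlap shares given above would produce by themselves was not tested. A Sox6 peak has a median width of 151 bp, and 14.0% of the Sox6 peaks in runs had another Sox6 centre within 500 bp, against 17.4% for Sox9, while within 1000 bp the shares were 42.8% for Sox6 and 35.9% for Sox9. The difference between close and distant Sox9 peaks was present in each 25% of the deposited Sox9 list: in the first 25% of places 68.5% (62.8 to 73.9) against 89.0% (86.3 to 91.3) overlapped, and in the last 25% of places 39.0% (33.1 to 45.1) against 68.5% (63.3 to 73.3). The spacing classes were set after the data had been seen.

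Unshared Sox9 peaks of the runs were seldom far from Sox6. Of 827 such peaks, 558 (67.5%, 64.2 to 70.7) had a Sox6 centre within 1000 bp, close to the 65.7% (63.8 to 67.5) in runs of 2 to 4 peaks and compared with 46.9% (44.7 to 49.1) of the unshared single Sox9 peaks. By the rule a Sox9 peak of a run has another Sox9 centre within 12.5 kb, and a single one has none. Most Sox9 peaks overlap a Sox6 peak. Part of the short distances in runs, and of the contrast with single peaks, is therefore fixed by the rule. The median distance was 595 bp in runs of 5 or more, where the farthest was 13203 bp, and 573 bp in runs of 2 to 4. Shared Sox9 peaks had a Sox6 centre at a median of 42.0 bp in runs, and shared single Sox9 peaks at 40.5 bp. The end peaks of a run overlapped Sox6 in 75.7% (72.8 to 78.5) of cases and the inner ones in 68.5% (66.4 to 70.6).

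Some unshared Sox9 peaks followed each other without interruption. A streak here is a series of consecutive Sox9 peaks of 1 run that all lack a Sox6 overlap, a measure added after the map of the largest runs had been seen. There were 22 streaks of 4 or more peaks in 21 runs, with 112 Sox9 peaks in all, or 13.5% of the 827 unshared Sox9 peaks of the runs. Of the 22 streaks, 18 had exactly 4 peaks. The streak peaks had a median place at 68.7% of the Sox9 list, beside 58.0% for the other unshared peaks. How many streaks the share of unshared peaks would give by itself was not tested. The longest held 15 Sox9 peaks over 28.9 kb at the start of the chromosome 15 run (chr15:97804275-97833178), with 1 Sox6 peak among them. The chromosome 19 run had a streak of 14 peaks over 15.6 kb (chr19:5833457-5849035) and another of 5 over 6.51 kb (chr19:5794874-5801384), each again with 1 Sox6 peak inside. The remaining streak above 4 was one of 6 peaks in the isolated chromosome 17 run (chr17:39980026-39983620), for which repeated sequence was not tested. All 112 streak peaks had a median width of 170.5 bp, beside 174 bp for the other unshared and 181 bp for all other Sox9 peaks of the runs, although the streaks of 15 and 14 had medians of 255 and 229 bp.

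Peaks of the runs were more frequent in the first places of the deposited lists than single Sox9 or flank Sox6 peaks. This is a description, since the order is not documented. Sox9 peaks in runs of 5 or more had a median place at 42.2% of the list. That median was 43.2% in runs of 4, 48.2% in runs of 2 to 4 and 53.1% for single peaks. Of the Sox9 peaks in runs 16.5% (15.2 to 18.0) stood in the first 10% of places, against 7.13% (6.65 to 7.63) of the single Sox9 peaks. For Sox6, 24.0% (22.6 to 25.5) of the peaks inside runs stood in the first 10% of places, against 8.87% (8.05 to 9.75) of those in the flanks. Shared Sox6 peaks had a median place at 15.9% of the list inside runs and 19.7% elsewhere. Sox6-only peaks had median places at 58.9% inside runs and 58.6% elsewhere. Inside runs 55.4% of Sox6 peaks were shared, against 18.4% in the flanks, so these Sox6 groups also differ in their proportion of shared peaks. Widths were close, with a median of 180 bp for Sox9 peaks in runs and 185 bp for single ones, and 149 bp for Sox6 peaks inside runs and 151 bp elsewhere.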

How the data were processed

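The authors deposited each peak list as chromosome, start and end without a header. Bowtie and mm9 are named per the submitters' processing notes for the Sox6 and input samples. The names of both lists carry an FDR label without further explanation. The sources used here do not otherwise give the peak caller, its threshold, filters or pooling. They give no separate build for the Sox9 list, which was taken as mm9. Per the series' design text its peaks were called like those of Sox6. No mm9 genome or annotation was used, so genes, motifs and sequences of the runs were not analysed here. Starts were read as counted from 0 and are printed counted from 1.

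A Sox6 peak was inside a run if its centre was. Overlap meant at least 1 bp. Pooled flanks count shared sequence once. Ratios carry exact conditional binomial intervals. Named regions were the 10 runs with the most Sox9 peaks (ties by Sox6 peaks) and the 5 highest and 5 lowest in Sox6 per kb among runs of 7 or more. The rule, the regions and the comparisons were chosen with earlier results of these data known. Python 3.11.15, pandas 2.3.3 and scipy 1.17.1 were used, and the counting was tested on simulated lists.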

Additional observations from a re-analysis of the deposited data

How the results depend on the processing

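Both density ratios stayed above 1 under every alternative run. The ratio for all Sox6 peaks was 3.98 and 2.90 with cluster gaps of 5000 and 25000 bp, 2.79 and 4.58 with the first 50% of the Sox9 or Sox6 list, 2.64 for runs of 10 or more, 2.89 and 3.78 with flanks of the run length or 100 kb, 3.44 with flanks from 12.5 kb outward, 2.84 with spans from centre to centre and 2.53 with the fixed window. For Sox6-only peaks it was 1.55 and 1.89 with the first 50% of either list, 1.48, 2.13 and 2.00 with the same 3 changes of flank, and 2.39 with 50% overlap. The number of runs was 126, 858 and 81 with gaps of 5000 and 25000 bp and the first 50% of the Sox9 list. The share of runs denser inside was 93.4%, 93.9% and 92.7% with flanks of the run length, centre-to-centre spans and the fixed window. Sox9 and Sox6 sharing was 61.8% and 66.2% with a gap of 5000 bp, 73.6% and 47.0% with 25000 bp, 75.8% and 50.6% with the first 50% of the Sox9 list, 60.4% and 72.1% with that of Sox6, 61.9% and 45.6% for runs of 10 or more, 40.6% and 33.1% with 50% overlap, and 91.4% and 76.4% with a gap of up to 1000 bp. The cause of these moves was not tested. Joining overlapping Sox9 peaks, leaving out the chromosome 17 run or the 4 largest runs, and the fixed window were added after seeing the data, and the first 3 left each value within its interval. No paired analysis was possible because each factor has 1 list. Without scores or read counts, depth limits cannot be stated.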

Other observations

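In 6 of the 441 runs no Sox6 peak lay in the flanks, from which other runs of 5 or more are left out. Apart from the chromosome 17 run, these were on chromosome 11 (chr11:64515752-64537201), chromosome 13 (chr13:16099645-16114084), chromosome 15 (chr15:31021625-31050188 and chr15:59479338-59497412) and chromosome 19 (chr19:15997897-16000512), with 3 to 10 Sox6 peaks inside each. The second chromosome 15 run kept only 77.8 kb of flank. Sequence left out beside it includes a neighbouring run with 7 Sox6 peaks (chr15:59446996-59466748). The largest fold among runs with a flank peak was on chromosome 13 (chr13:114377664-114420964), where all 9 Sox9 peaks were shared and 21 Sox6 peaks lay inside, against 1 in the flanks. The shortest run, on chromosome 1 (chr1:89743709-89745738), packed 5 Sox9 and 4 Sox6 peaks into 2.03 kb. These regions were chosen after their values were seen.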
